A study of Mus musculus with 6 samples.

Results

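Interferon-stimulated genes were described across 6 RNA sequencing libraries of mouse bone marrow cells. The members are 36 genes chosen by name as known targets of interferon, and all 36 were found among the 38924 rows of the deposited table. They fall into the OAS family (5 genes), the IFIT family (3), the guanylate-binding proteins or GBP family (3), the immunity-related GTPases or IRG family (3), transcription factors (4), sensors of nucleic acids (4), the ISG15 system with its partners (4) and other antiviral effectors (10).

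The cells came from C57BL/6 mice, carried GFP, lacked markers of mature lineages (Lin-) and displayed c-kit, the receptor for stem cell factor. Mock cells carried GFP alone and were taken at 4 weeks, preleukemia cells carried Evi1-GFP and were taken at 4 weeks, and leukemia cells carried Evi1-GFP and were taken at 6 months, with 2 libraries in each group. Evi1, encoded by Mecom, is a zinc finger transcription factor. All 3 groups share the GFP tag and the sort. The sources used here give neither the promoter that drove Evi1, nor the event from which time was counted, nor whether both libraries of a group were from different animals. P-values therefore take in only the spread of these 6 libraries, which can be technical. No GFP group stood at 6 months, so leukemia and time cannot be told apart.

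Interferons are secreted proteins that bind receptors on most cells, where the Jak kinases phosphorylate Stat proteins. Type I interferon acts mainly through a complex that holds Stat2 and Irf9 and binds the interferon-stimulated response element (ISRE) in promoters, whereas targets of interferon gamma often carry the gamma-activated sequence (GAS). The induced proteins sense foreign nucleic acid, degrade or sequester viral RNA, and feed back on the pathway. In bone marrow, interferon is known to push quiescent stem cells into division.

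Values are RPKM, read numbers scaled to transcript length and to the size of the library, and a difference is one in log2(RPKM + 1) ± its standard error. Adjusted p-values are from limma over 10956 tested genes with the Benjamini-Hochberg method at 0.05, and "rose" and "fell" are used only of genes past it. The totals implied by the steps between low values were 16902400 to 21624300 reads, so that 3 reads on 1 kb come to between 0.139 and 0.177 RPKM (counting error only). Mecom stood at 0.774 and 0.805 (mock), 78.0 and 80.1 (preleukemia) and 61.7 and 71.5 RPKM (leukemia), high where the labels name Evi1-GFP. Pairs of values are given here and below in the order library 1 and library 2. Kit stood between 46.8 and 69.2 RPKM in all 6 libraries. Cd34 and Ly6a are not named in the sort and were put on a marker list with Kit by choice here. Cd34 was lowest in preleukemia. It stood at 142 and 112 (mock), 63.5 and 47.2 (preleukemia) and 127 and 98.6 RPKM (leukemia). Ly6a, also on that list, is given with the markers at the end. In bulk samples, fewer cells that express a gene and less RNA per cell cannot be told apart.

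In preleukemia, 24 of the 35 tested members rose against mock and 0 fell, where 19.5% of all tested genes were called, 13.5% higher and 6.02% lower. The members that rose were spread over every subfamily, from Oas2 with the highest difference (2.71 ± 0.15, adjusted p = 0.000312) to Irf9 with the lowest among them (0.44 ± 0.11, adjusted p = 0.0370). The remaining 11 did not pass, 1 of which, Gbp3, had a lower level with an unadjusted p of 0.0276. The median difference of the members was 0.78, against 0.05 over all tested genes. Of all called genes 69.1% were higher, 58.1% after median scaling and 52.8% after quantile normalization, while the called members were 100% higher under each. Both preleukemia libraries lay above both mock libraries for 28 tested members and below them for 1, where 37.2% and 25.5% of all tested genes did so. The remaining member, Ifit3, did not reach the filter of 1 RPKM in 2 libraries. The calls of 9 members held without each of the 6 libraries in turn: Oas1a, Oas2, Oas3, Oasl2, Dhx58, Isg15, Dtx3l, Samhd1 and Trim30a. A call that was lost in at least 1 of those 6 fits is named library-dependent from here on. Each of those fits estimates the spread from fewer libraries, so a call can be lost with its difference unchanged. The share of all tested genes called also moved in these fits, below and above the 19.5% of the full fit. The name therefore does not tell dependence on 1 library from the weaker fit. Without preleukemia 1, 13 members lost their call (adjusted p = 0.0558 to 0.206), namely Ifit1, Gbp7, Irgm1, Irf7, Irf9, Stat2, Ifih1, Zbp1, Parp9, Mx1, Ifi44, Ifi35 and Xaf1, and 11 calls remained. Without preleukemia 2, 11 lost it (adjusted p = 0.0560 to 0.205), namely Gbp7, Irgm1, Irf7, Irf9, Stat2, Ddx58, Ifih1, Parp9, Ifi35, Xaf1 and Ifi27l2a. Without mock 2, Irf7 and Ifih1 lost it (adjusted p = 0.0602 to 0.0641), and without mock 1, Irf7 did (adjusted p = 0.0546) while Irf1 and Gbp3 were called lower and Usp18 higher (adjusted p = 0.00253, 0.00917 and 0.0156). Without either leukemia library, Irgm1, Irf7, Irf9 and Ifih1 lost it, although their differences stayed the same at 0.44 to 0.63.

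In leukemia against mock, 9 members rose, 1 fell and 25 did not pass, where 25.6% of all tested genes were called, 12.1% higher and 13.5% lower. Those that rose were Rsad2, Samhd1, Dtx3l, Xaf1, Dhx58, Trim30a, Irgm1, Parp9 and Oasl2, with differences from 1.79 for Rsad2 to 0.49 for Oasl2. The gene that fell was Irf7 (-0.56 ± 0.15, adjusted p = 0.0355). The median difference of the members was 0.16, against -0.04 over all tested genes. Both leukemia libraries lay above both mock libraries for 17 members and below them for 9, where 29.96% and 35.5% of all tested genes did so. Only Dtx3l, Rsad2 and Samhd1 were called without each of the 6 libraries. Without leukemia 1, Oasl2, Irgm1, Irf7, Dhx58, Parp9, Trim30a and Xaf1 lost their call. Without leukemia 2, Oasl2, Irgm1, Irf7, Parp9 and Xaf1 did (adjusted p = 0.0719 to 0.133). Without either preleukemia library, Oasl2, Irgm1, Irf7, Dhx58 and Parp9 did (adjusted p = 0.0559 to 0.0739), and without mock 2, Oasl2, Irf7 and Dhx58 did (adjusted p = 0.0661 to 0.0783) while Gbp3, Ifi47 and Usp18 gained one. Without mock 1, Oas1a, Oas2 and Stat2 were called higher as well, and Gbp2 and Irf1 lower.

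From preleukemia to leukemia, 17 members fell, 2 rose (Gbp3 and Rsad2) and 16 did not pass, where 18.3% of all tested genes were called, 13.02% lower and 5.28% higher. The median difference of the members was -0.63, against -0.09 over all tested genes. After quantile normalization the medians were -0.43 and 0.03. Of all called genes 28.8% were higher, 44.0% after median scaling and 50.8% after quantile normalization, and of the called members 10.5%, 11.1% and 11.1%. Both leukemia libraries lay below both preleukemia libraries for 27 members and above them for 3, where 46.02% and 24.7% of all tested genes did so. Oas2, Oas3, Oasl2, Irf7, Ifih1, Isg15 and Ifi44 kept their call without each of the 6 libraries. Without preleukemia 2, 11 calls were lost (adjusted p = 0.0578 to 0.192), those of Oas1a, Ifit2, Gbp3, Ifi47, Ddx58, Dhx58, Zbp1, Rsad2, Trim30a, Ifi35 and Ifi27l2a. Without leukemia 1, 10 were lost (adjusted p = 0.0519 to 0.144), those of Oas1a, Ifit2, Gbp3, Ifi47, Dhx58, Zbp1, Usp18, Rsad2, Trim30a and Ifi35. Without preleukemia 1, 9 were lost (adjusted p = 0.0573 to 0.186), those of Oas1a, Ifit2, Gbp3, Ifi47, Dhx58, Zbp1, Usp18, Trim30a and Ifi35, and without leukemia 2, 7 were lost (adjusted p = 0.0586 to 0.222), those of Oas1a, Ifit2, Ifi47, Dhx58, Zbp1, Trim30a and Ifi35.

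Read over the 3 comparisons, which share libraries, the members fell into several patterns. These patterns were not counted over all tested genes, so the counts do not show what is particular to the members. Of all tested genes, 13.5% were called higher in preleukemia against mock and 13.02% lower from preleukemia to leukemia. The group mean was highest in preleukemia for 29 members, in leukemia for 3 (Gbp3, Rsad2, Samhd1) and in mock for 4 (Gbp2, Irf1, Mx2, Bst2). The most common pattern, in 10 members, was a rise in preleukemia and a fall from there to leukemia with no call between leukemia and mock. It held Oas1a, Oas2, Oas3, Ddx58, Ifih1, Zbp1, Isg15, Ifi44, Ifi35 and Ifi27l2a. Of these, Oas2 was close to the threshold in leukemia against mock, and was called higher there with a pseudocount of 0.1 or 0.5 (adjusted p = 0.0380 and 0.0456), after median scaling (0.0475) and after quantile normalization (0.0483), while Ifih1 was called lower there without the trend on the mean level (adjusted p = 0.0411). Oasl2, Dhx58 and Trim30a also rose and fell but were still called above mock in leukemia. Another 5 members, Irgm1, Parp9, Dtx3l, Samhd1 and Xaf1, rose in preleukemia and were called above mock in leukemia with no call between both Evi1 groups. Ifit1, Gbp7, Irf9, Stat2 and Mx1 passed in preleukemia against mock alone, and Ifit2, Ifi47 and Usp18 in leukemia against preleukemia alone. Stat2 was also called in leukemia against mock under the same 4 settings as Oas2 (adjusted p = 0.0358 to 0.0496). With mock left out of the fit, Gbp7, Stat2 and Mx1 were called lower from preleukemia to leukemia (adjusted p = 0.0423 to 0.0455). With array weights these genes and Ifit1 were called lower there (adjusted p = 0.0255 to 0.0361). In these fits 31.3% and 34.6% of all tested genes were called. Without the trend, Ifit2 was called lower in leukemia against mock (adjusted p = 0.0475) and Usp18 higher in preleukemia against mock (0.0497). Irf7 rose in preleukemia and fell in leukemia to below mock. In 6 members (Oasl1, Gbp2, Igtp, Irf1, Mx2 and Bst2) no comparison passed. Of these, Oasl1 was called lower from preleukemia to leukemia with array weights and with a replicate block (adjusted p = 0.0470 and 0.0372).

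**Figure D1:**
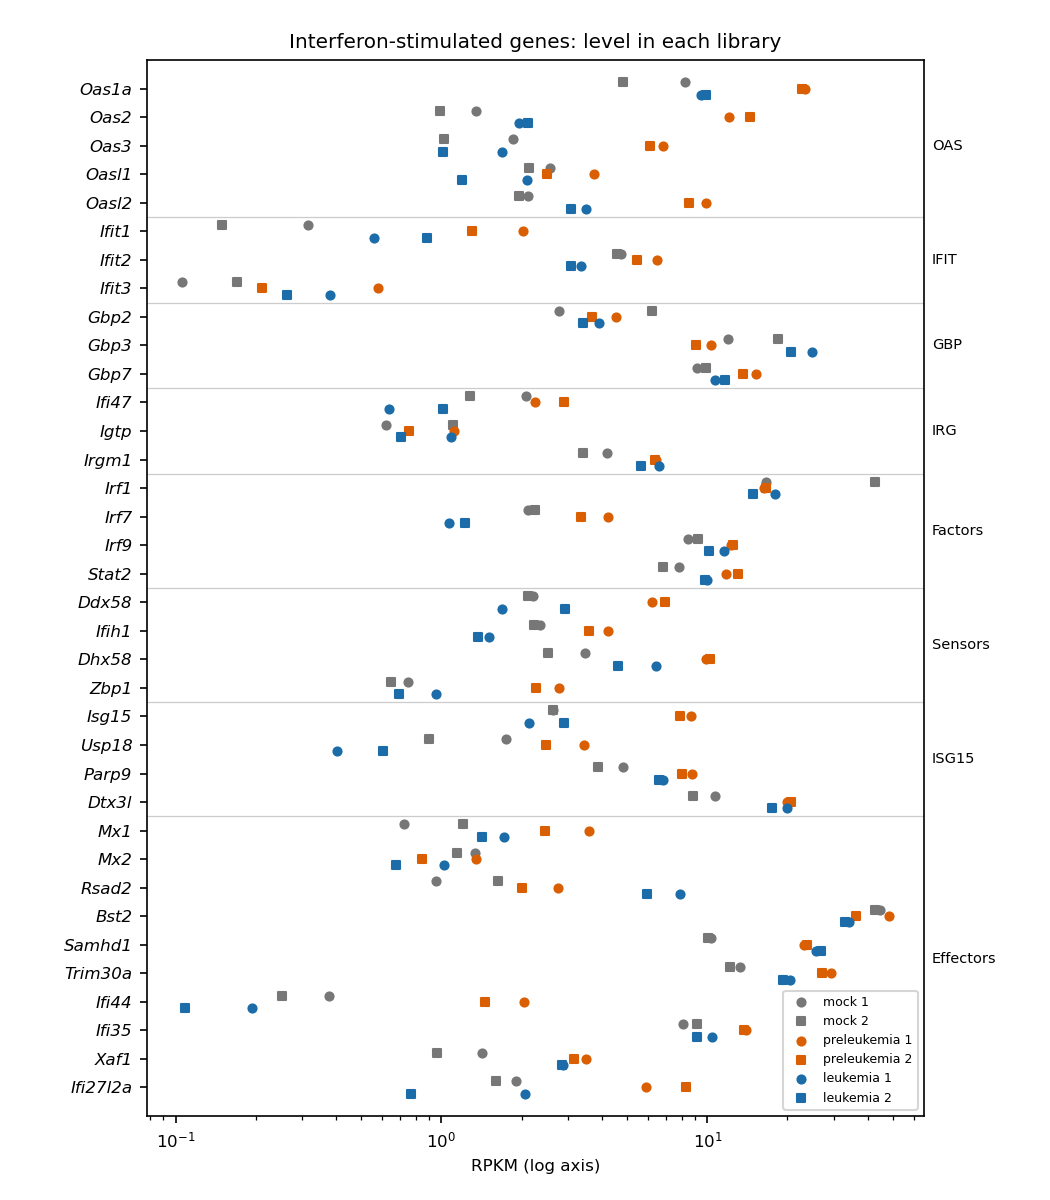
Level of each of the 36 interferon-stimulated genes in RPKM (log axis) in each library, with mock in grey, preleukemia in orange and leukemia in blue, circles for library 1 and squares for library 2, grouped by subfamily. The orange points lie to the right of the grey ones in 28 tested members, and Rsad2, Gbp3 and Samhd1 have both blue points farthest right.

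**Figure D2:**
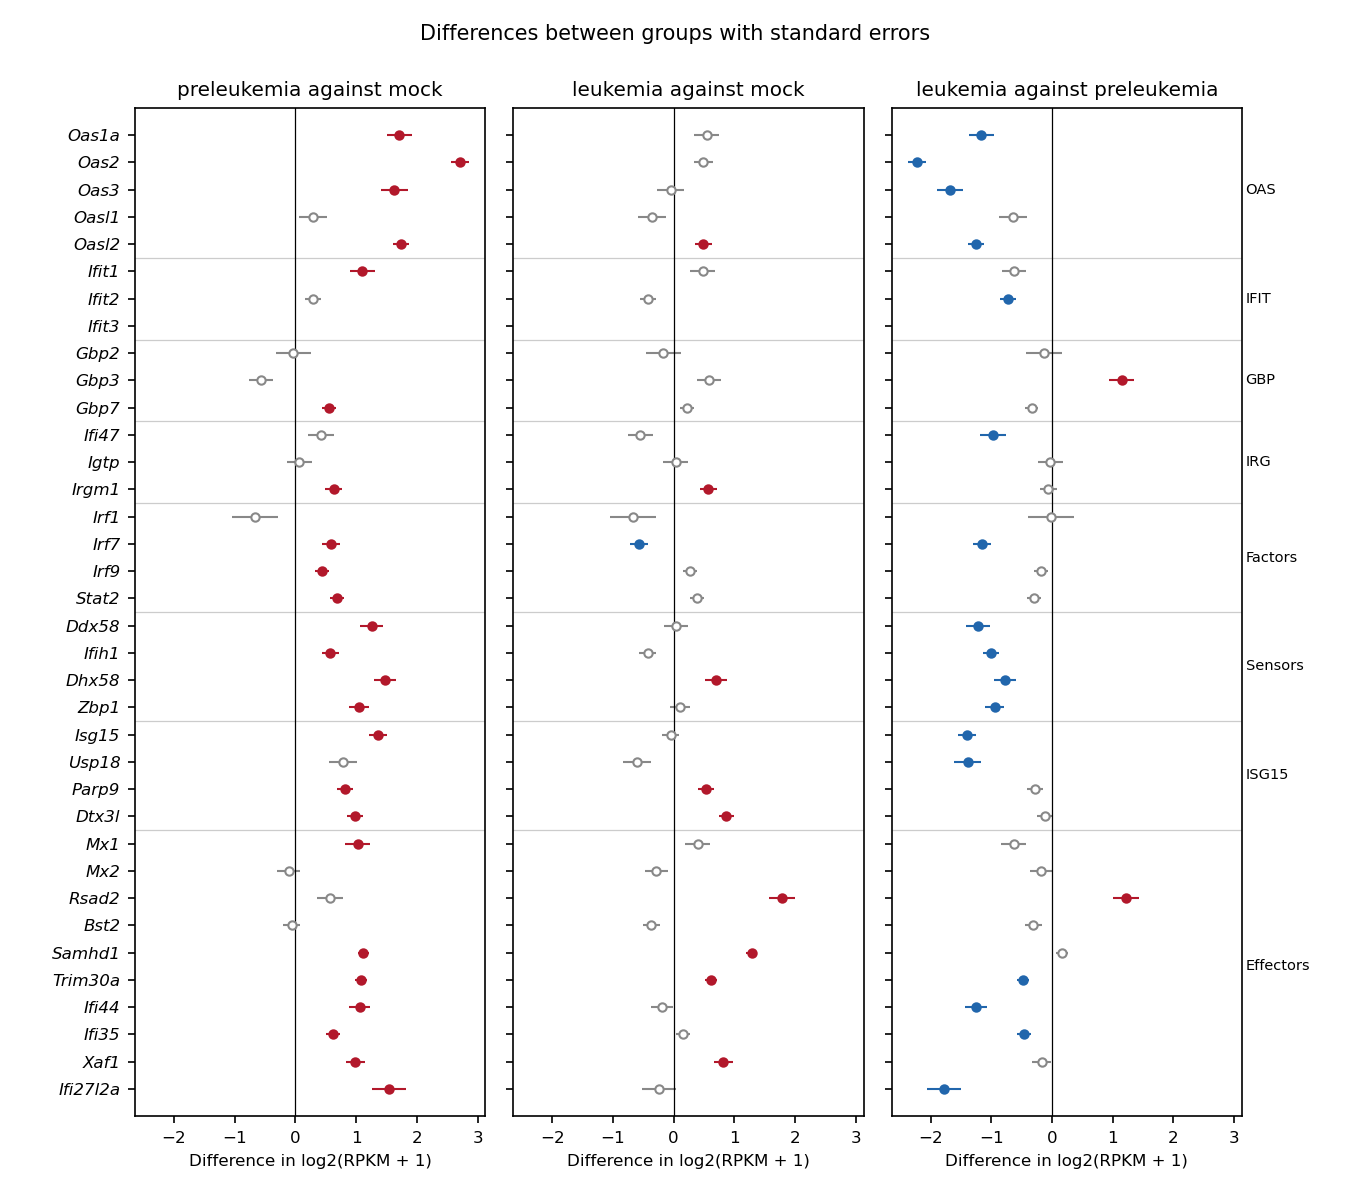
Difference in log2(RPKM + 1) between 2 groups for each member, with its standard error as the bar, in the 3 comparisons. Filled red points passed as higher and filled blue points as lower (24 and 0, 9 and 1, 2 and 17), open grey points did not pass, and Ifit3 was not tested.

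Promoter sequence was available for 28 members, in 33 windows of 250 bases before to 50 bases after the RefSeq start of transcription (GRCm38.p6). The ISRE core, TTTC then any 2 bases then TTTC, searched on both strands, stood in 17 of 33 windows (51.5%), where 3.44% of all 32851 windows in the table held it. The longer form, with a G before the first TTTC, of which every match contains the ISRE core, stood in 14 windows (42.4%), against 0.819% of all windows. The GAS core TTCNNNGAA, which reads the same on both strands and differs in spacing from the ISRE, stood in 8 windows (24.2%), against 8.30% of all windows. A match is a description of the letters and not a bound site. Of the members with a window, an ISRE core was present in 6 of 10 that rose in preleukemia and fell again, in 4 of 8 that rose without a later call lower and in 6 of 10 that were not called higher in preleukemia. The last class includes Ifit3, which held a core and was not tested. Below are 160 bases upstream of the start of 8 members with a core there and a call in at least 1 comparison, to let their cores be compared, 5′ to 3′ on the strand of the gene, with the ISRE core in capitals on whichever strand it lay.
Isg15 (chr4:156200819-156200978, minus strand): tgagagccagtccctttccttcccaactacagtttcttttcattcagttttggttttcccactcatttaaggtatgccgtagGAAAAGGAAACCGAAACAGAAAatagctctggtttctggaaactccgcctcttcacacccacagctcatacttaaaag
Oas1a (chr5:120907526-120907685, minus strand): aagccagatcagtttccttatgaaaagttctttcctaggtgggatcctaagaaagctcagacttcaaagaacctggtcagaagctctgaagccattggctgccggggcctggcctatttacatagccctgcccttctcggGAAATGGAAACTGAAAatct
Oas3 (chr5:120777662-120777821, minus strand): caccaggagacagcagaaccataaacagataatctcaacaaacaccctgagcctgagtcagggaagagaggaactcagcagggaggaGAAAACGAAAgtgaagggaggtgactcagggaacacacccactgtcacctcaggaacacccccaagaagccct
Ifit1 (chr19:34640711-34640870, plus strand): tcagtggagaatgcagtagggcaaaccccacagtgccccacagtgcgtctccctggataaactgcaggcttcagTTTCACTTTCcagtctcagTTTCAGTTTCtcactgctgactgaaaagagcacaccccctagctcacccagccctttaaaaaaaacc
Gbp7 (chr3:142530176-142530335, plus strand): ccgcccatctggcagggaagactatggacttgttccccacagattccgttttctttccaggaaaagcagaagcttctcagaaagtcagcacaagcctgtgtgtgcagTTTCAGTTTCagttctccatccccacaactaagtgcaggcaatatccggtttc
Gbp3 (chr3:142559866-142560025, plus strand): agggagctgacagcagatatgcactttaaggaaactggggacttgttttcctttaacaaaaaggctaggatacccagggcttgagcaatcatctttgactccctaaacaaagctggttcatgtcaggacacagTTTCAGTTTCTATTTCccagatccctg
Rsad2 (chr12:26456453-26456612, minus strand): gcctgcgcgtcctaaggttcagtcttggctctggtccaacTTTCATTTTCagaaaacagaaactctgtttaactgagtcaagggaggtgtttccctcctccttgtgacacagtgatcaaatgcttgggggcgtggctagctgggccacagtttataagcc
Trim30a (chr7:104465194-104465353, minus strand): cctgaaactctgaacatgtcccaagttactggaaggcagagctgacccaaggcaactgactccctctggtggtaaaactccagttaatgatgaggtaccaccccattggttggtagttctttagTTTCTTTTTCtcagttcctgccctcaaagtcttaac
Isg15 held 3 overlapping cores and Oas1a and Gbp3 held 2 each that overlap, so their capitals form 1 run. Ifit1 held 2 separate cores. Gbp3 and Gbp7, neighbours on chromosome 3 with the same 10 letters TTTCAGTTTC in their cores, had different patterns, described below with their values. Rsad2, which was highest in leukemia, and Trim30a, which was highest in preleukemia, held 1 core each in these bases.

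**Figure D3:**
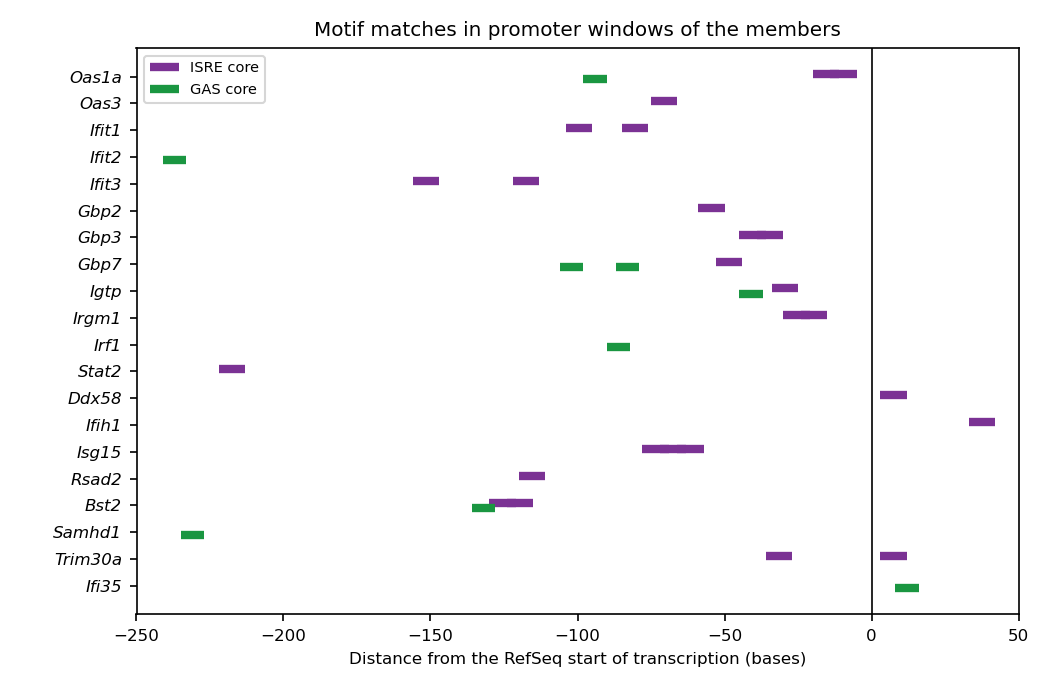
Positions of ISRE core matches (purple) and GAS core matches (green) in the promoter windows of the members with a match, in bases from the RefSeq start of transcription at 0. Of the 28 members with a window, 16 held an ISRE core and 8 a GAS core, most of them upstream of the start.

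OAS proteins are enzymes that double-stranded RNA switches on to make short chains of adenylate, a signal of infection inside the cell. 4 of the 5 members rose in preleukemia and 4 fell from there to leukemia, with 1 called above mock in leukemia. Oas1a (ENSMUSG00000052776.10, chr5:120896256-120907521 on the minus strand of GRCm38) stood at 8.25 and 4.80 (mock), 23.3 and 22.7 (preleukemia) and 9.47 and 9.91 RPKM (leukemia). Oas2 stood at 1.35 and 0.989 (mock), 12.0 and 14.5 (preleukemia) and 1.96 and 2.12 RPKM (leukemia). Oas3 stood at 1.86 and 1.02 (mock), 6.79 and 6.09 (preleukemia) and 1.68 and 1.01 RPKM (leukemia). In all 3 genes, which lie within 177 kb on chromosome 5, both preleukemia libraries were above the other 4, and leukemia overlapped mock only in Oas3. The rise was 2.71 ± 0.15, adjusted p = 0.000312 for Oas2 and 1.71 ± 0.21, adjusted p = 0.00362 for Oas1a, and all 3 fell to leukemia, Oas2 by a difference of -2.22 ± 0.15, adjusted p = 0.000938 and Oas3 by one of -1.68 ± 0.22, adjusted p = 0.00487. Oas1a has a close copy, Oas1g, at 1.74 and 0.656 (mock), 7.83 and 10.2 (preleukemia) and 1.40 and 1.04 RPKM (leukemia), and the sources used here do not say how reads shared by the copies were counted. Oasl2, an OAS-like protein, stood at 2.12 and 1.95 (mock), 9.87 and 8.51 (preleukemia) and 3.49 and 3.06 RPKM (leukemia). Its groups did not overlap in any comparison, and it was called in all 3 (1.74 ± 0.13, adjusted p = 0.000894, 0.49 ± 0.13, adjusted p = 0.0388 and -1.25 ± 0.13, adjusted p = 0.00276). Its neighbour Oasl1, known to restrain Irf7 translation, stood at 2.55 and 2.13 (mock), 3.74 and 2.50 (preleukemia) and 2.10 and 1.19 RPKM (leukemia) and passed no test. The calls of Oas1a (leukemia against preleukemia) and Oasl2 (leukemia against mock) were library-dependent.

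IFIT proteins bind RNA whose cap lacks the marks of the host and keep it from being translated. Of 2 tested members, 1 rose in preleukemia and 1 fell from preleukemia to leukemia. Ifit1 stood at 0.314 and 0.149 (mock), 2.02 and 1.30 (preleukemia) and 0.556 and 0.881 RPKM (leukemia), low in mock and above it in all 4 Evi1 libraries, with no overlap between groups. It rose in preleukemia by 1.10 ± 0.20, adjusted p = 0.0133 and passed in neither other comparison. Ifit2 stood at 4.72 and 4.57 (mock), 6.46 and 5.45 (preleukemia) and 3.36 and 3.06 RPKM (leukemia), with the leukemia libraries lowest and no overlap, and it fell from preleukemia to leukemia (-0.72 ± 0.13, adjusted p = 0.0134). Ifit3, on 4 to 17 implied reads, stood at 0.106 and 0.170 (mock), 0.576 and 0.212 (preleukemia) and 0.382 and 0.262 RPKM (leukemia). It was below the filter and so not tested, and it has a near copy, Ifit3b, with which reads may be shared. Both calls were library-dependent.

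GBPs are large GTPases that attack the membranes around intracellular pathogens. The 3 members lie within 108 kb on chromosome 3 and showed 3 patterns: Gbp7 rose in preleukemia, Gbp3 rose from preleukemia to leukemia, and Gbp2 passed no test. Gbp7 (ENSMUSG00000040253.15, chr3:142530342-142550149 on the plus strand of GRCm38) stood at 9.15 and 9.85 (mock), 15.2 and 13.6 (preleukemia) and 10.7 and 11.7 RPKM (leukemia), with both preleukemia libraries above the other 4, and rose against mock by 0.55 ± 0.11, adjusted p = 0.0189. Gbp3 (ENSMUSG00000028268.14, chr3:142560026-142573209 on the plus strand of GRCm38) stood at 11.9 and 18.4 (mock), 10.3 and 9.04 (preleukemia) and 24.7 and 20.7 RPKM (leukemia), so the preleukemia libraries were lowest and the leukemia libraries highest with no overlap, and the difference between leukemia and preleukemia was 1.15 ± 0.20, adjusted p = 0.0125. Against mock no GBP member passed in leukemia, and 1 (Gbp3) had an unadjusted p under 0.05. Gbp2 stood at 2.78 and 6.20 (mock), 4.53 and 3.67 (preleukemia) and 3.90 and 3.40 RPKM (leukemia), and its mock libraries spanned all others. GBP genes are similar in sequence, so reads may be split between them, and both calls were library-dependent.

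IRG proteins are smaller interferon-induced GTPases, of which Irgm1 regulates the others. Of 3 members, Irgm1 rose in preleukemia and was above mock in leukemia, Ifi47 fell from preleukemia to leukemia, and Igtp passed no test. Irgm1 stood at 4.20 and 3.40 (mock), 6.43 and 6.37 (preleukemia) and 6.60 and 5.64 RPKM (leukemia), with all 4 Evi1 libraries above mock and overlapping each other. The difference from mock was 0.63 ± 0.14, adjusted p = 0.0243 in preleukemia and 0.57 ± 0.14, adjusted p = 0.0266 in leukemia. Ifi47 stood at 2.08 and 1.28 (mock), 2.24 and 2.89 (preleukemia) and 0.637 and 1.01 RPKM (leukemia), lowest in leukemia, and fell from preleukemia to leukemia (-0.97 ± 0.21, adjusted p = 0.0230). Igtp stood at 0.618 and 1.10 (mock), 1.11 and 0.754 (preleukemia) and 1.08 and 0.705 RPKM (leukemia), with all groups overlapping. Ifi47 overlaps Olfr56 by 20388 bases and Igtp overlaps Irgm2 by 7974 bases on the same strand in GENCODE M21, which leaves their counts uncertain, and the 3 calls were library-dependent.

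Of the transcription factors, Irf9, Stat2 and Irf7 rose in preleukemia, Irf7 fell in leukemia, and Irf1 passed no test. Irf9 and Stat2 are parts of the complex that binds the ISRE. Irf9 stood at 8.44 and 9.18 (mock), 12.2 and 12.4 (preleukemia) and 11.5 and 10.1 RPKM (leukemia). Stat2 stood at 7.83 and 6.81 (mock), 11.8 and 12.999 (preleukemia) and 9.94 and 9.79 RPKM (leukemia). Both were above both mock libraries in all 4 Evi1 libraries, and the rise in preleukemia was 0.44 ± 0.11, adjusted p = 0.0370 for Irf9 and 0.69 ± 0.12, adjusted p = 0.0102 for Stat2. Irf7, the factor that amplifies type I interferon production, stood at 2.11 and 2.24 (mock), 4.23 and 3.34 (preleukemia) and 1.07 and 1.23 RPKM (leukemia), with no overlap between any groups. It rose in preleukemia by 0.58 ± 0.15, adjusted p = 0.0393, then fell from there to leukemia (-1.15 ± 0.15, adjusted p = 0.00487) and lay below mock (-0.56 ± 0.15, adjusted p = 0.0355). Irf1, which binds the same motif and is a strong target of interferon gamma, stood at 16.5 and 42.8 (mock), 16.4 and 16.6 (preleukemia) and 18.0 and 14.9 RPKM (leukemia), where mock 2 was above all other libraries and mock 1 among them. The rises and the call of Irf7 against mock in leukemia were library-dependent, and the fall of Irf7 from preleukemia was not.

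All 4 sensors rose in preleukemia and all 4 fell from preleukemia to leukemia. Ddx58 (RIG-I) and Ifih1 (MDA5) recognise viral RNA and signal through Mavs, Dhx58 (LGP2) lacks the signalling domain and modulates both, and Zbp1 binds nucleic acid in the Z form. Dhx58 stood at 3.46 and 2.53 (mock), 9.84 and 10.2 (preleukemia) and 6.42 and 4.62 RPKM (leukemia), Evi1 libraries above mock in both groups. Its difference was 1.48 ± 0.18, adjusted p = 0.00368 in preleukemia and 0.70 ± 0.18, adjusted p = 0.0320 in leukemia against mock. Zbp1 stood at 0.747 and 0.645 (mock), 2.76 and 2.27 (preleukemia) and 0.958 and 0.692 RPKM (leukemia). Ddx58 stood at 2.21 and 2.11 (mock), 6.19 and 6.93 (preleukemia) and 1.69 and 2.92 RPKM (leukemia). In both genes preleukemia was above all other libraries, while leukemia overlapped mock. The rise was 1.05 ± 0.16, adjusted p = 0.00743 for Zbp1 and 1.26 ± 0.19, adjusted p = 0.00768 for Ddx58, and the fall to leukemia was -1.22 ± 0.19, adjusted p = 0.00895 for Ddx58 and -0.95 ± 0.16, adjusted p = 0.0109 for Zbp1. Ifih1 stood at 2.34 and 2.24 (mock), 4.22 and 3.59 (preleukemia) and 1.51 and 1.37 RPKM (leukemia), lowest in leukemia without overlap, and fell from preleukemia to leukemia (-1.01 ± 0.14, adjusted p = 0.00546). Dhx58 overlaps an antisense gene, Dhx58os, by 2637 bases, and without strand their reads cannot be told apart. The calls of Dhx58 in both comparisons with leukemia, those of Ddx58 and Zbp1 in both comparisons they passed, and the rise of Ifih1 were library-dependent.

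Isg15 is a small modifier that is attached to proteins by the enzymes Uba7, Ube2l6 and Herc6 and removed by Usp18. Isg15 itself (ENSMUSG00000035692.6, chr4:156199424-156200818 on the minus strand of GRCm38) stood at 2.63 and 2.62 (mock), 8.68 and 7.88 (preleukemia) and 2.14 and 2.89 RPKM (leukemia), with preleukemia above all other libraries and leukemia overlapping mock. It rose in preleukemia by 1.35 ± 0.15, adjusted p = 0.00258 and fell from there to leukemia (-1.41 ± 0.15, adjusted p = 0.00264). Usp18, which also binds Ifnar2 and dampens signalling, stood at 1.75 and 0.895 (mock), 3.44 and 2.48 (preleukemia) and 0.403 and 0.604 RPKM (leukemia), without overlap. It fell from preleukemia to leukemia (-1.39 ± 0.23, adjusted p = 0.00981), while its higher level in preleukemia than in mock did not pass (adjusted p = 0.0551). Uba7, the activating enzyme, rose in both comparisons with mock. Ube2l6, the conjugating enzyme, passed no test in preleukemia against mock and fell in leukemia. Uba7 stood at 10.5 and 11.5 (mock), 34.3 and 31.3 (preleukemia) and 47.3 and 50.8 RPKM (leukemia), with differences of 1.49 ± 0.10, adjusted p = 0.000633, 2.06 ± 0.10, adjusted p = 0.000131 and 0.57 ± 0.10, adjusted p = 0.0137 in the order of the comparisons above. Ube2l6 stood at 6.10 and 5.43 (mock), 7.64 and 5.44 (preleukemia) and 0.882 and 0.739 RPKM (leukemia), and fell against mock (-1.90 ± 0.17, adjusted p = 0.000962) and against preleukemia (-2.04 ± 0.17, adjusted p = 0.00164). Herc6, the ligase, chosen after its values were seen, stood at 3.95 and 3.36 (mock), 6.00 and 5.29 (preleukemia) and 4.80 and 4.71 RPKM (leukemia). It rose in preleukemia against mock (0.51 ± 0.13, adjusted p = 0.0373) and passed in neither other comparison. Dtx3l, a ubiquitin ligase, stood at 10.7 and 8.85 (mock), 20.0 and 20.5 (preleukemia) and 19.8 and 17.4 RPKM (leukemia). Its partner Parp9 stood at 4.81 and 3.87 (mock), 8.73 and 8.04 (preleukemia) and 6.82 and 6.57 RPKM (leukemia). Both lay above mock in all 4 Evi1 libraries. Dtx3l rose by 0.98 ± 0.12, adjusted p = 0.00409 in preleukemia and 0.87 ± 0.12, adjusted p = 0.00433 in leukemia, and Parp9 by 0.82 ± 0.13, adjusted p = 0.00863 and 0.53 ± 0.13, adjusted p = 0.0279. They overlap by 682 bases on opposite strands, so a part of their reads cannot be told apart. The calls of Parp9 and Usp18 were library-dependent, and Uba7 lost its call between leukemia and preleukemia without any 1 of the Evi1 libraries (adjusted p = 0.0643 to 0.127).

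**Figure D4:**
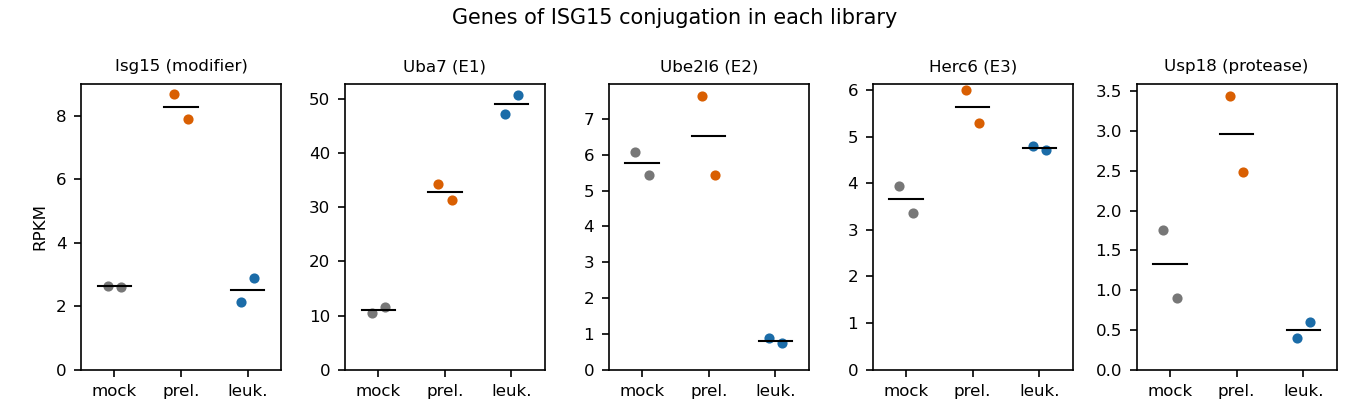
RPKM of Isg15 and of the genes that attach or remove it in each library (points, library 1 left of library 2) with the group mean as a line, each panel on its own axis from 0. Isg15 is highest in preleukemia at 8.68 and 7.88, while Uba7 is highest and Ube2l6 lowest in leukemia.

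Among the 10 other effectors, 7 rose in preleukemia, 4 were above mock in leukemia, and from preleukemia to leukemia 1 rose and 4 fell. Samhd1, which hydrolyses the nucleotides needed for reverse transcription, stood at 10.3 and 10.1 (mock), 23.0 and 23.6 (preleukemia) and 25.7 and 26.8 RPKM (leukemia). All 4 Evi1 libraries lay above both mock libraries, and the difference was 1.12 ± 0.09, adjusted p = 0.00105 in preleukemia and 1.28 ± 0.09, adjusted p = 0.000436 in leukemia. Trim30a stood at 13.2 and 12.2 (mock), 29.0 and 27.1 (preleukemia) and 20.4 and 19.3 RPKM (leukemia), with every group apart. It rose in preleukemia by 1.09 ± 0.10, adjusted p = 0.00146, fell from there to leukemia and was called above mock there (0.61 ± 0.10, adjusted p = 0.00744). Rsad2 (viperin), which makes a nucleotide that ends viral RNA chains, stood at 0.951 and 1.64 (mock), 2.74 and 2.01 (preleukemia) and 7.91 and 5.90 RPKM (leukemia). It was highest in leukemia with no overlap, and rose by 1.79 ± 0.22, adjusted p = 0.00238 against mock and 1.22 ± 0.22, adjusted p = 0.0123 against preleukemia. Ifi44 stood at 0.378 and 0.251 (mock), 2.05 and 1.46 (preleukemia) and 0.195 and 0.108 RPKM (leukemia), highest in preleukemia and lowest in leukemia without overlap, and it rose in preleukemia and fell to leukemia (-1.25 ± 0.18, adjusted p = 0.00614). Ifi27l2a stood at 1.90 and 1.60 (mock), 5.87 and 8.28 (preleukemia) and 2.06 and 0.769 RPKM (leukemia), with preleukemia above all other libraries, and fell to leukemia (-1.78 ± 0.28, adjusted p = 0.00847). Xaf1, linked to cell death, stood at 1.42 and 0.960 (mock), 3.50 and 3.15 (preleukemia) and 2.85 and 2.83 RPKM (leukemia), above mock in all 4 Evi1 libraries, and rose by 0.99 ± 0.15, adjusted p = 0.00776 in preleukemia. Ifi35 stood at 8.09 and 9.17 (mock), 14.0 and 13.7 (preleukemia) and 10.4 and 9.11 RPKM (leukemia), and passed as higher in preleukemia and lower from there to leukemia. Mx1, a GTPase that traps viral nucleocapsids, stood at 0.723 and 1.21 (mock), 3.58 and 2.45 (preleukemia) and 1.72 and 1.42 RPKM (leukemia), and its paralog Mx2 at 1.34 and 1.15 (mock), 1.34 and 0.841 (preleukemia) and 1.02 and 0.674 RPKM (leukemia). Mx1 rose in preleukemia, without overlap between groups, whereas Mx2 passed no test. Laboratory strains such as C57BL/6 carry defective Mx genes, so these RNA levels may not stand for working protein. Bst2 (tetherin), which holds budding virus at the membrane, stood at 44.7 and 42.6 (mock), 48.0 and 36.3 (preleukemia) and 34.2 and 33.0 RPKM (leukemia), which include the highest value of the 36 members, and passed no test. Calls of Trim30a and Xaf1 against mock in leukemia, of Trim30a, Rsad2, Ifi35 and Ifi27l2a in leukemia against preleukemia, and of Ifi44, Ifi35, Xaf1, Mx1 and Ifi27l2a in preleukemia were library-dependent.

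**Figure D5:**
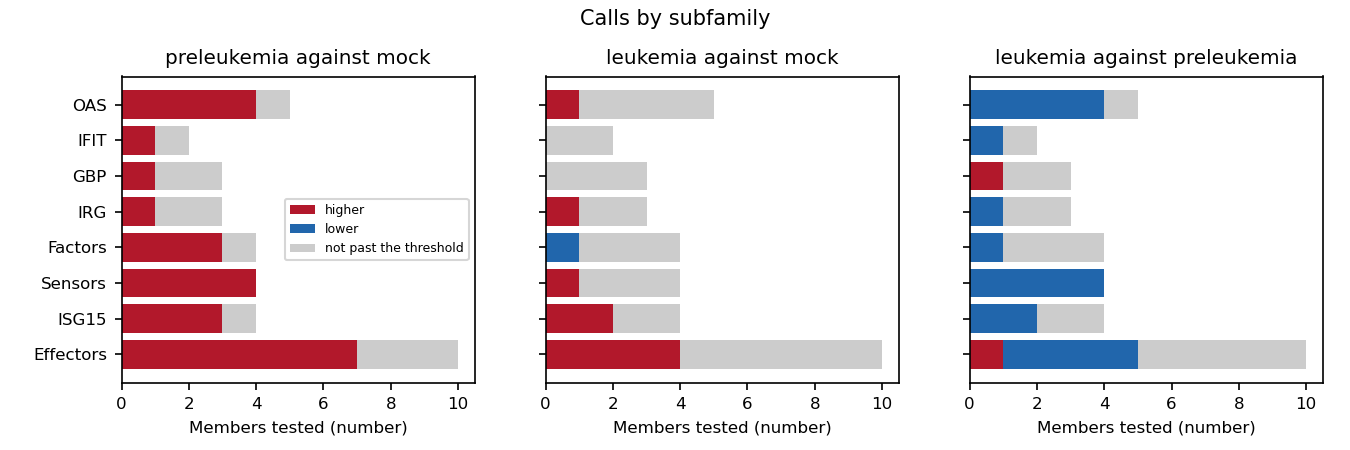
Number of tested members of each subfamily called higher (red), called lower (blue) or not past the threshold (grey) in the 3 comparisons. In preleukemia against mock no bar has a blue part, and the OAS genes and the sensors have 4 of 5 and 4 of 4 members called in preleukemia and again, in the other direction, from preleukemia to leukemia.

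The interferon genes themselves were near or at 0. Of 10 listed ligands (5 alpha and beta genes, Ifne, Ifnk, Ifng, Ifnl2 and Ifnl3), none reached the filter, and all were at 0 in every library but mock 2, where Ifnb1 had 2 implied reads and Ifna2 and Ifng 1 each. A count of 3 reads would have been worth 0.107 to 0.316 RPKM on these genes, so lower levels were not detectable. Of the receptors and kinases, 2 of 9 tested rose in preleukemia against mock, 2 rose and 2 fell in leukemia against mock, and 1 rose and 3 fell from preleukemia to leukemia. Over all tested genes, 13.5% were higher in the first comparison, and 12.1% were higher and 13.5% lower in the second. In the third, 5.28% were higher and 13.02% lower. On only 9 genes, the counts were not tested against these shares. Tyk2, the kinase of the type I receptor, stood at 5.97 and 4.89 (mock), 7.45 and 9.25 (preleukemia) and 5.88 and 5.55 RPKM (leukemia), and rose in preleukemia (0.54 ± 0.15, adjusted p = 0.0474). Ifngr1, a chain of the interferon gamma receptor, stood at 75.0 and 56.9 (mock), 69.9 and 66.0 (preleukemia) and 28.2 and 39.0 RPKM (leukemia), lowest in leukemia, and fell against mock (-0.96 ± 0.19, adjusted p = 0.0125) and preleukemia (-1.01 ± 0.19, adjusted p = 0.0139). Jak1, which serves both receptors, stood at 22.6 and 23.8 (mock), 27.3 and 27.1 (preleukemia) and 34.2 and 35.0 RPKM (leukemia), and rose in leukemia against mock (0.56 ± 0.09, adjusted p = 0.00672). The type I receptor chain Ifnar1 stood at 12.9 and 11.7 (mock), 13.9 and 13.6 (preleukemia) and 15.9 and 16.1 RPKM (leukemia) and rose in leukemia against mock (0.35 ± 0.10, adjusted p = 0.0433). Ifnar2 and Ifngr2 passed no test, at 24.8 to 32.0 and 8.72 to 10.1 RPKM. Every call named here was library-dependent. Tyk2 lost its rise without any 1 library but mock 1 (adjusted p = 0.0889 to 0.276). Ifngr1 lost its call against mock without leukemia 1 (adjusted p = 0.0661) and against preleukemia without leukemia 1 or either preleukemia library (0.0828 to 0.0883). Jak1 lost its call without either leukemia library (adjusted p = 0.0523 and 0.0613), and Ifnar1 without any 1 library but mock 1 (0.0567 to 0.213).

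Over all tested genes, 13.5% were called higher and 6.02% lower in preleukemia against mock. The shares were 12.1% higher and 13.5% lower in leukemia against mock, and 5.28% higher and 13.02% lower from preleukemia to leukemia. The list counts below were not tested against these shares. Of the sensors, adaptors and upstream factors, 2 of 13 tested rose and 1 fell in preleukemia. In leukemia against mock 3 rose and 1 fell, and 2 rose and 2 fell from preleukemia to leukemia. Ikbke, the kinase that activates Irf3 and Irf7, stood at 5.50 and 5.39 (mock), 16.5 and 21.2 (preleukemia) and 4.73 and 5.96 RPKM (leukemia), and rose in preleukemia (1.61 ± 0.16, adjusted p = 0.00169) and fell to leukemia (-1.64 ± 0.16, adjusted p = 0.00234). Aim2, a sensor of cytosolic DNA, stood at 11.9 and 15.1 (mock), 16.6 and 14.0 (preleukemia) and 26.8 and 24.9 RPKM (leukemia), and was above mock in leukemia (0.89 ± 0.14, adjusted p = 0.00651). Irf5 stood at 7.68 and 13.2 (mock), 4.48 and 4.04 (preleukemia) and 7.77 and 7.24 RPKM (leukemia), and fell in preleukemia (-1.08 ± 0.22, adjusted p = 0.0203). Irf8 passed no test, at 3.96 to 9.74 RPKM. Negative regulators rose in 3 of 12 in preleukemia, 1 rose and 1 fell in leukemia against mock, and 2 fell from preleukemia to leukemia. The phosphatase Ptpn6 stood at 39.2 and 40.9 (mock), 94.1 and 99.1 (preleukemia) and 70.5 and 79.4 RPKM (leukemia), and rose in preleukemia (1.25 ± 0.10, adjusted p = 0.000957) and in leukemia against mock (0.89 ± 0.10, adjusted p = 0.00188). Socs1, an inhibitor of the Jak kinases, passed no test at 0.892 to 1.82 RPKM. Aim2 lost its call without leukemia 1 (adjusted p = 0.0519) and Irf5 without either preleukemia library (adjusted p = 0.0871 and 0.134). Further OAS, IFIT, GBP and IRG genes rose in 4 of 7 tested in preleukemia and fell in 4 of 7 from preleukemia to leukemia, among them Oas1g (2.23 ± 0.26, adjusted p = 0.00313 and -2.17 ± 0.26, adjusted p = 0.00383). Of 36 further interferon-stimulated genes tested, 20 rose and 3 fell in preleukemia, 10 rose and 6 fell in leukemia against mock, and 3 rose and 11 fell from preleukemia to leukemia. Ms4a4c, a membrane protein of leukocytes, stood at 2.03 and 2.77 (mock), 36.7 and 29.5 (preleukemia) and 11.3 and 12.3 RPKM (leukemia), and rose in both comparisons with mock (3.33 ± 0.16, adjusted p = 0.000183 and 1.91 ± 0.16, adjusted p = 0.000695). Rtp4 stood at 2.09 and 1.35 (mock), 4.58 and 3.55 (preleukemia) and 0.484 and 0.518 RPKM (leukemia), and fell from preleukemia to leukemia (-1.75 ± 0.19, adjusted p = 0.00276).

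Several lists of markers of other cell types differed between the groups, and their part in the results was not tested. The sum of 7 monocyte and macrophage markers was 428 to 613 RPKM in mock, 578 to 598 in preleukemia and 425 to 479 in leukemia. Both other groups overlapped mock, but single genes moved apart. Ly6c2 stood at 277 and 390 (mock), 264 and 301 (preleukemia) and 5.68 and 34.8 RPKM (leukemia). F13a1 stood at 95.3 and 150, 264 and 248, and 340 and 364 RPKM in the same order. The summed level of 8 neutrophil markers (S100a8, S100a9, Ltf, Ngp, Lcn2, Camp, Mmp8 and Cd177) was 11.2 to 17.2 RPKM in mock, 3876 to 8337 in preleukemia and 410 to 714 in leukemia, and none was at 0 in mock or preleukemia. Most of the sum came from S100a8, at 2179 and 4117 RPKM in preleukemia, and S100a9, at 1474 and 3049. Mmp8 did not follow it, at 0.717 and 1.39 (mock), 0.0482 and 2.96 (preleukemia) and 0.00 and 0.0830 RPKM (leukemia). Between the preleukemia libraries the sum was 2.15 times higher in library 2, and single markers differed by more, with Ltf at 17.4 and 166 RPKM, Ngp at 117 and 643 and Camp at 3.44 and 67.3. For the 24 members that rose, the ratio of preleukemia library 2 to library 1 was 0.644 to 1.41, with a median of 0.927. The summed level of 6 plasmacytoid dendritic markers, which include Bst2, was 60.7 to 63.1 RPKM in mock, 45.4 to 59.1 in preleukemia and 43.0 to 46.9 in leukemia, and of these the most specific, Siglech and Ccr9, were at most 0.263 and 0.042 RPKM. The sum of 6 T and NK markers was at most 0.602 RPKM, with 1 to 4 of them at 0 in a library. The sum of 4 megakaryocyte markers was 29.5 to 29.6 RPKM in mock, highest in preleukemia at 48.3 to 66.3 and lowest in leukemia at 3.20 to 11.5. Erythroid markers summed to 90.2 to 216 RPKM in mock, 81.3 to 132 in preleukemia and 1.84 to 9.11 in leukemia, with 1 of 5 at 0 in leukemia. B-lymphoid markers summed to 37.9 to 38.4, 17.6 to 19.3 and 11.9 to 12.5 RPKM in the same order, and mast cell and basophil markers to 57.8 to 90.2, 19.5 to 22.9 and 17.5 to 18.5. Ly6a, which encodes Sca-1 and is itself induced by interferon, stood at 3.11 and 6.04 (mock), 34.0 and 36.2 (preleukemia) and 1.86 and 1.74 RPKM (leukemia).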

How the data were processed

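RNA was sequenced from GFP+ Lin- c-kit+ mouse marrow cells, 2 libraries in each of 3 groups, made with the NEBNext Ultra RNA kit per the labels' protocols. By its name the kit does not mark strand. CASAVA 1.8.2 and GRCm38 are listed, per the submitters' processing notes. The aligner, counter and annotation version were not given in the sources used here.

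The authors deposited 1 RPKM value per gene and library for 38924 rows. That these are RPKM was judged by their steps: multiplied by exon length in GENCODE M21, values under 20 reads lay within 0.02 of a whole number in 64.5% to 66.4% of cases. Of the rows, 35433 (91.0%) matched a gene of that release, which gave the gene coordinates, and 4 rows with repeated names were left out. All 6 columns of values were mapped to samples by title.

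The comparisons used limma 3.58.1 (R 4.3.3) on log2(RPKM + 1), a scale that understates changes of weakly expressed genes. A gene was tested if 2 or more libraries reached 1 RPKM (10956 genes). The fit held 3 group means over all 6 libraries, with an empirical Bayes spread that follows the mean level (3 residual and 3.70 prior degrees of freedom). Tests were two-sided, with Benjamini-Hochberg adjusted p at 0.05. The script was tested on simulated data.

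The members, the pathway lists and the marker lists were chosen with earlier results of these data known. Values are given for all 36 members, and differences for up to 3 members with the smallest p in each subfamily and comparison. Of each pathway list up to 2 genes with the smallest p in a comparison were named, with Ifnar1, Ifnar2, Ifngr1, Ifngr2, Socs1 and Irf8. Not every gene that this rule picked is reported here, and genes named outside it, such as Herc6 and Ly6a, were chosen after their values were seen. Promoters are RefSeq windows of GRCm38.p6, matched by symbol. The alternatives changed the pseudocount, the filter, the scaling or the spread estimate, left out the third group or 1 library, or added array weights or a replicate block.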

Additional observations from a re-analysis of the deposited data

How the results depend on the processing

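With 24, 10 and 19 members called in preleukemia against mock, leukemia against mock and leukemia against preleukemia, leaving out 1 library at a time gave 11 to 26, 3 to 15 and 8 to 22 calls. For leukemia against mock, the count was 5 with no filter on low values. It was 5 when the third group was left out of the fit and 6 with array weights. In these fits 11.7%, 17.5% and 18.3% of all tested genes were called, against 25.6% in the full fit, and the cause was not tested. Under the other pseudocounts (0.1 and 0.5), the filter on a mean of 2 RPKM, both other scalings and the spread without a trend, each count stayed within 1.5 times the reported one. No called member or named pathway gene turned its direction under any alternative run. With the replicate number as a block the counts were 23, 10 and 20. Same-numbered libraries deviated together only weakly (r = 0.116, 0.0126 and 0.179 across genes, which are not independent), so the numbers were not taken as pairs. With 2 libraries a group, 3 residual degrees of freedom limit the tests. At 0.139 to 0.177 RPKM for 3 reads on 1 kb, levels of the interferon genes could not be compared. Ifit3, on 4 to 17 implied reads, was left out of the reported fit by the filter.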

Other observations

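The mock libraries differed from each other in some interferon-stimulated genes, which were chosen after their values were seen and do not stand for a fixed list. In mock 2 the level was 2.59 times that of mock 1 for Irf1, 2.23 times for Gbp2, 1.54 times for Gbp3, 1.63 times for Gbp5 and 2.67 times for Gvin1. The chemokine gene Cxcl10 stood at 2.43 and 9.96 (mock), 0.0389 and 0.152 (preleukemia) and 0.125 and 0 RPKM (leukemia). Other members did not follow: the same ratio was 1.08 for Gbp7, 0.808 for Irgm1 and 0.617 for Ifi47. Of the 6 libraries, mock 2 was the one with any implied read on a listed interferon gene. These were 2 reads on Ifnb1 and 1 each on Ifna2 and Ifng, each under the floor of 3 reads. A link between them and the levels above was not tested. Across members the median absolute log2 difference between the mock libraries was 0.19, against 0.22 over all tested genes. In the other groups the members differed more than all tested genes, 0.18 against 0.11 in preleukemia and 0.17 against 0.11 in leukemia.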
